A study of Mus musculus with 32 samples.

Results

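The Vκ segments with position numbers 84 to 92 are 8 neighbouring variable segments of the mouse Igκ light chain locus: Igkv4-92, Igkv4-91, Igkv4-90, Igkv12-89, Igkv1-88, Igkv4-86, Igkv13-85 and Igkv13-84. They were chosen by the second number of their names alone, out of the 112 segments counted, and they belong to 4 families, with 4 of them in family Igkv4. In the GENCODE M21 annotation of mm10 all 8 are functional V genes, and they lie within 185 kb of chromosome 6, at chr6:68755038-68940067. Of the 8, 7 are on the minus strand and Igkv13-84 is on the plus strand, which is that of Cκ. The pseudogene Igkv13-87, annotated within the stretch, was not analysed here.

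Rearranged Igκ RNA was sequenced (VJ-seq) from pre-B cells of female F1 hybrids between the C57BL/6 (B6) and Castaneous (Cast) mouse strains. A read that covers a base differing between the strains could thus be assigned to a parental allele. The cells came from bone marrow of mice aged 8 to 12 weeks, were selected in IL-7 for 10 to 14 days on ST2 feeder cells, and were cloned by limiting dilution, so that each clone is a line from 1 cell. A first table of counts holds the clones 3, 4, 8, B52 and E9-3 after 48 h without IL-7, which lets rearrangement proceed, together with a pre-B-cell pool, and a second one holds clone 4 at 12, 24, 36 and 48 h without IL-7. The sample labels list the pool with the cultured 48 h libraries, while the methods do not state how long a pool was kept without IL-7, so that the pool may differ from the clones in more than clonality. The labels name no engineered deletion or transgene. For clone 3 the study describes a loss of most of the Vκ region of the Cast allele in cells of late passage, and the passage of the VJ-seq library is not given in the sources used here. That library holds 80861 Cast reads of 165679 in all. Since the tables hold Vκ segments only, the labelled cell type could not be checked against markers.

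A Vκ segment becomes part of a light chain gene when the RAG recombinase joins it to a Jκ segment. RAG cuts at a recombination signal next to each segment, which for Vκ consists of a heptamer, a spacer of 12 bases and a nonamer. A segment in the orientation of Jκ and Cκ joins by deletion of the DNA in between, and a segment in the opposite orientation joins by inversion. The read count of a segment depends both on how many cells had joined it and on how much RNA each of them made, and these cannot be told apart in such libraries.

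The recombination signals of the 8 segments are printed here because they are the element that RAG cuts, and because neighbours differ in them. They were read from mm10 as the 28 bases that follow the V exon on the strand of the segment, with heptamer and nonamer in capitals.
Igkv4-92: CACAGTGctacagagtggaACAAAATGC
Igkv4-91: CACCGTGctacagactaaaACAAGAACC
Igkv4-90: CACAATGatacagactggaACAAAAACC
Igkv12-89: CACAGTGattcaagccatgACATAAATC
Igkv1-88: CACAGTGatttataccccaACAAAAACT
Igkv4-86: CACAGTGatacagactggaACAAAAACC
Igkv13-85: CACAGTGacacaagccatgACATAAACC
Igkv13-84: CACAGTGatacaagccatgACATAAACC

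The consensus heptamer CACAGTG stands in 6 of the 8 (75.0%), against 82.9% of the 111 segments of the tables found in the annotation, each read on its own strand. Igkv4-91 has CACCGTG, which no other of the 111 segments has, and Igkv4-90 has CACAATG, found in 5.41% of the 111. The consensus nonamer ACAAAAACC stands in Igkv4-90 and Igkv4-86 only, against 32.4% of the 111, so that Igkv4-86 is the only one of the 8 with both consensus parts. Between the signals of Igkv4-90 and Igkv4-86 the single difference is A5G, counted from the first base of the heptamer, and between those of Igkv13-85 and Igkv13-84 it is C9T, in the spacer. These are B6 sequences, and the Cast signals were not read here, except that both of the study's allele-specific primers for the end of Igkv4-91 run into the heptamer CACCGTG. On the sense strand the primers read as follows, with the bases that differ between the alleles in capitals.
B6: AtaccacGcacaccgtgcta
Cast: TtaccacTcacaccgtgcta

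The differences are A1T and G8T, counted from the first base of the sense sequence, and both lie within the V exon, 9 and 2 bases before its last base.

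The 48 h table holds between 34291 reads in clone E9-3 and 320951 in the pool, and the time course between 1174 reads at 24 h and 10958 at 48 h. The B6 allele took from 51.2% of the reads in clone 3 to 71.8% in clone 4, with 57.4% in the pool, and from 76.2% to 84.2% in the time course. Each condition has 1 library. All intervals given are therefore 95% Wilson intervals of the reads, which were amplified by PCR without molecular identifiers, and they cover counting error only. Tests on reads compare libraries and not conditions. The libraries of clone 4 at 48 h in the separate tables are the only repeat, and the variance between them was 33.9 times that of counting error for the percent of a segment, as the mean chi-square statistic over 100 segments, and 19.2 times for the B6 share, over 66 segments. Such a statistic grows with read number, so that abundant segments weigh most in both ratios. They may be too large for segments with few reads. Counts were divided by these ratios as an alternative (division by the excess variance).

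Together the 8 segments made up 4.15% of the reads of the pool, 2.71% of clone 3, 2.74% of clone 4, 4.79% of clone 8, 1.69% of clone B52 and 2.88% of clone E9-3. Clone 8 was thus the only clone above the pool, and clone B52 had the lowest level. Their summed B6 share was 50.5% in the pool, 47.6% for clone 3, 54.2% for clone 4, 50.9% for clone 8, 60.3% for clone B52 and 45.8% for clone E9-3. In each of these 6 libraries it lay below the B6 share of the whole library, which was 53.7% for clone E9-3 and 65.8% in clone B52. Without Igkv1-88, which has most reads, the summed B6 share was between 42.3% for clone 3 and 65.7% in clone B52, and it stayed below the share of all other reads in each of the 6 libraries, but by less than 1 percentage point in clone B52.

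Counted over all members, the percent of library differed from the pool in 22 of 40 comparisons of a segment and a clone, at an adjusted p under 0.05 (Fisher's exact test on the reads with Benjamini-Hochberg adjustment over all segments) and at least 2-fold, where 55.4% of all segments tested were called. Of these, 19 were lower in the clone, against 31.5% of all tests, and 3 were higher, against 23.9%. Between clones 39 of 80 comparisons were called, where the background was 52.1%, so that the overall counts were near those of all segments. The B6 share differed from the pool by at least 20 points in 12 of 39 comparisons (background 32.8%) and between clones in 32 of 76 (background 29.9%). With counts divided by the excess variance, 8 of the 22 calls in percent against the pool remained, where 37.4% of all tests were called, and 9 of the 39 between clones, where 26.5% were. In B6 share 3 of the 12 remained against the pool (all tests 19.2%) and 2 of the 32 between clones (all tests 13.99%). Under this setting the members were called less often than the segments as a whole, in a comparison without a test. The same divisor, taken from all segments, was applied at every depth, and segments with few reads can hardly be called after it. The lower rate therefore does not show that the members differ from other segments. The 8 were Igkv4-92 and Igkv4-86 in clone 8, Igkv4-91 in clone B52, Igkv13-85 in clone 3, and Igkv12-89 and Igkv13-84 in clones 3 and B52, and the 3 were Igkv4-91 and Igkv4-90 in clone 3 and Igkv12-89 in clone 8.

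**Figure D1:**
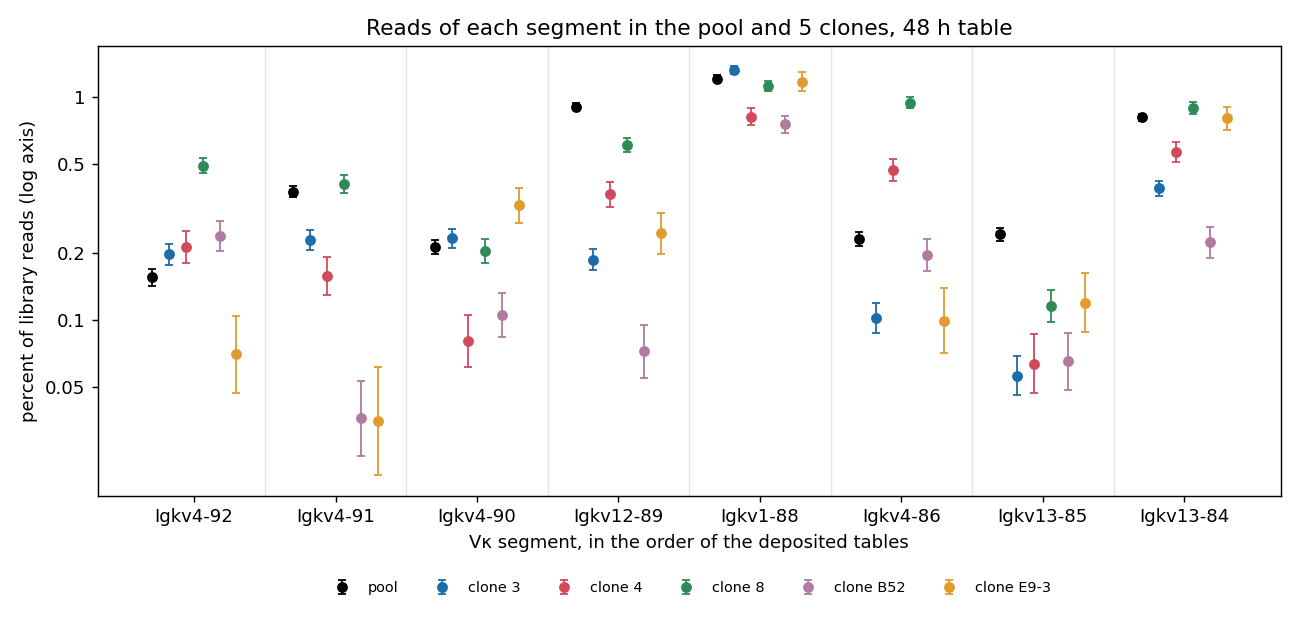
Percent of all reads of a library (log axis) for each of the 8 segments in the pool and the 5 clones of the 48 h table, with 95% Wilson intervals for counting error. Igkv1-88 stayed between 0.757% and 1.32%, while Igkv4-91 fell to 0.0350% in clone E9-3 and Igkv4-86 reached 0.946% in clone 8.

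Igkv4-92 (chr6:68755038-68755593, minus strand) is the member farthest from Cκ, 1.97 Mb away. It made up 0.155% of the pool, 0.197% of clone 3, 0.212% of clone 4, 0.493% of clone 8, 0.239% of clone B52 and 0.0700% of clone E9-3, the last from 24 reads. Its level was 3.17-fold higher in clone 8 than in the pool (adjusted p = 4.11e-78, Fisher's exact test with Benjamini-Hochberg adjustment) and 0.450 times the pool level in clone E9-3 (adjusted p = 2.86e-05, same test). The second of these calls was lost without the 3 most abundant segments of each library and after division by the excess variance. The reads on B6 formed 61.1% of its reads in the pool, 96.0% for clone 3, 57.7% for clone 4, 30.0% for clone 8, 93.9% for clone B52 and 75.0% for clone E9-3. No other of the 8 segments spread more widely between clones, with 66.0 percentage points between clone 3 (314 B6 and 13 Cast reads) and clone 8 (176 B6 and 411 Cast reads). With the alleles scaled to the same total, B6 remained over 50% in 3 clones and not in clone 4.

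Igkv4-91 (chr6:68768555-68769103, minus strand), the segment with the heptamer CACCGTG, made up 0.376% of the pool, 0.229% of clone 3, 0.158% of clone 4, 0.407% of clone 8, 0.0362% of clone B52 and 0.0350% of clone E9-3. Clones B52 and E9-3 had the lowest levels, with 25 and 12 reads, and their ratio to the pool was 0.0962 in clone B52 (adjusted p = 4.11e-69) and 0.0931 in clone E9-3 (adjusted p = 3.49e-37, both by Fisher's exact test). Of its reads, 79.3% were on B6 in the pool, 46.4% for clone 3, 76.5% for clone 4, 66.6% for clone 8, 100% for clone B52 and 83.3% for clone E9-3. Clone 3 was the only library with fewer B6 than Cast reads, also after scaling of the alleles. The absence of Cast reads in clone B52 rests on 25 reads, and the interval of the B6 share reaches down to 86.7%.

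Igkv4-90 (chr6:68807179-68807708, minus strand), with the heptamer CACAATG, made up 0.212% of the pool, 0.233% of clone 3, 0.0804% of clone 4, 0.203% of clone 8, 0.106% of clone B52 and 0.327% of clone E9-3. Its highest level over the clones was in E9-3 and its lowest in clone 4. B6 reads formed 65.2% in the pool, 10.9% for clone 3, 59.6% for clone 4, 51.2% for clone 8, 35.6% for clone B52 and 20.5% for clone E9-3. The share was below that of the pool in all 5 clones, and the differences of -54.3 points in clone 3 (adjusted p = 1.53e-71), -44.7 points in clone E9-3 (adjusted p = 1.91e-18) and -29.6 points in clone B52 (adjusted p = 3.21e-06) passed Fisher's exact test and the minimum of 20 points. After scaling of the alleles it was under 50% in 5 of 5 clones.

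Igkv12-89 (chr6:68834846-68835307, minus strand) made up 0.906% of the pool, 0.187% of clone 3, 0.366% of clone 4, 0.611% of clone 8, 0.0723% of clone B52 and 0.245% of clone E9-3. The pool was above every clone, with clone B52 at 0.0798 times its level, and the difference was called in 4 of 5 clones, clone 8 being the exception. Its B6 share was lowest in the pool, at 23.2%, and was 31.7% for clone 3, 57.8% for clone 4, 61.2% for clone 8, 70.0% for clone B52 and 32.1% for clone E9-3. On the Cast allele of the pool it made up 1.63% of the allele's reads, against 0.367% on the B6 allele. Clones 4, 8 and B52 were 34.6 to 46.8 points above the pool, while after scaling of the alleles only clone B52 stayed over 50%, and the call of clone 4 against the pool was lost (35.03% against 18.3%).

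Igkv1-88 (chr6:68862265-68863031, minus strand) was the most abundant member in each of the 6 libraries, with 1.21% of the pool, 1.32% of clone 3, 0.820% of clone 4, 1.12% of clone 8, 0.757% of clone B52 and 1.18% of clone E9-3. The highest clone exceeded the lowest by 1.75-fold, the smallest spread among the 8, and the median spread over the 85 segments with at least 20 reads in all 6 libraries was 4.87-fold. B6 reads formed 54.1% of its reads in the pool, 53.2% for clone 3, 48.9% for clone 4, 49.0% for clone 8, 53.7% for clone B52 and 42.7% for clone E9-3. The clones lay within 11.05 points, against a median range of 27.6 points over the same 85 segments. Neither its percent nor its B6 share was called in any of the 5 comparisons with the pool or the 10 pairs of clones. As percent of the B6 allele it was called lower in clone 4 than in the pool and in clone 3 and lower in clone B52 than in clone 3, and with the alleles scaled its B6 share was called lower in clone 4 than in clone 3. The libraries of clone 4 at 48 h gave B6 shares of 48.9% and 63.6%, so that this repeat differed by more (14.7 points) than the clones did among themselves. With the alleles scaled to the same total, its share over the clones was 27.3% to 51.96% and under 50% in 4 of 5 clones.

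Igkv4-86 (chr6:68910411-68910973, minus strand), with the consensus heptamer and nonamer, made up 0.231% of the pool, 0.102% of clone 3, 0.472% of clone 4, 0.946% of clone 8, 0.195% of clone B52 and 0.0992% of clone E9-3. It was 4.10-fold higher in clone 8 (adjusted p = 5.86e-199) and 2.05-fold higher in clone 4 (adjusted p = 5.22e-23) than in the pool, and 0.442 and 0.430 times the pool level in clones 3 and E9-3 (Fisher's exact test in each case). The call in clone 4 was lost without the 3 most abundant segments of each library, and only that in clone 8 remained after division by the excess variance. The 9.54-fold difference between clones 8 and E9-3 was exceeded among the 8 only by the 11.6-fold one of Igkv4-91 between the same clones. On B6 were 58.2% of its reads in the pool, 30.2% for clone 3, 62.0% for clone 4, 74.0% for clone 8, 63.0% for clone B52 and 52.9% for clone E9-3. Clone 3 stood on the Cast side and the other 4 clones on the B6 side, but after scaling of the alleles only clone 8 stayed over 50%. For clone 4 the repeat library at 48 h of the time course gave a level of 0.283%, nearer to that of the pool. There 15 of 31 reads (48.4%) were on B6.

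Igkv13-85 (chr6:68930269-68930734, minus strand) had no Cast read in any of the 10 libraries, against 1166 B6 reads, which allows a Cast share of up to 0.257% of the counted reads. The Cast sequence was not read here, and whether the segment exists or can be mapped on that allele was not tested. Within single libraries of the 48 h table the limit was between 0.386% in the pool, from 777 reads, and 7.32% in clones 4 and E9-3, from 41 reads each. In the time course it was 17.6% at 36 h, from 17 reads, and 21.4% at 48 h, from 14 reads, and the earlier times had 1 read in all. Each of these limits is 3 divided by the number of reads, and not a Wilson interval. The Wilson interval of the B6 share reached down to 99.5% in the pool and to 91.4% in clones 4 and E9-3. Igkv13-85 made up 0.242% of the pool, 0.0561% of clone 3, 0.0634% of clone 4, 0.115% of clone 8, 0.0651% of clone B52 and 0.120% of clone E9-3. The level was lower than in the pool in 5 of 5 clones, at 0.232 to 0.494 times the pool, and it was the only member called in every clone. Without the 3 most abundant segments of each library it was called in 4 of them, and not in clone E9-3.

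Igkv13-84 (chr6:68939602-68940067, plus strand) is the member nearest to Cκ, 1.79 Mb away, and the only one in the orientation of Cκ. It made up 0.813% of the pool, 0.389% of clone 3, 0.566% of clone 4, 0.895% of clone 8, 0.223% of clone B52 and 0.805% of clone E9-3. Clones 3 and B52 were called lower than the pool, at 0.479 and 0.274 times its level. Of its reads 39.6% were on B6 in the pool, 31.3% for clone 3, 39.9% for clone 4, 19.7% for clone 8, 35.1% for clone B52 and 51.8% for clone E9-3. Cast reads thus prevailed in the pool and in 4 of 5 clones, and after scaling of the alleles in 5 of 5. For clone 4 the side differed in the repeat library at 48 h of the time course, where 41 of 71 reads (57.7%) were on B6. In clone 8 the 855 Cast reads made it 1.94% of that allele.

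**Figure D2:**
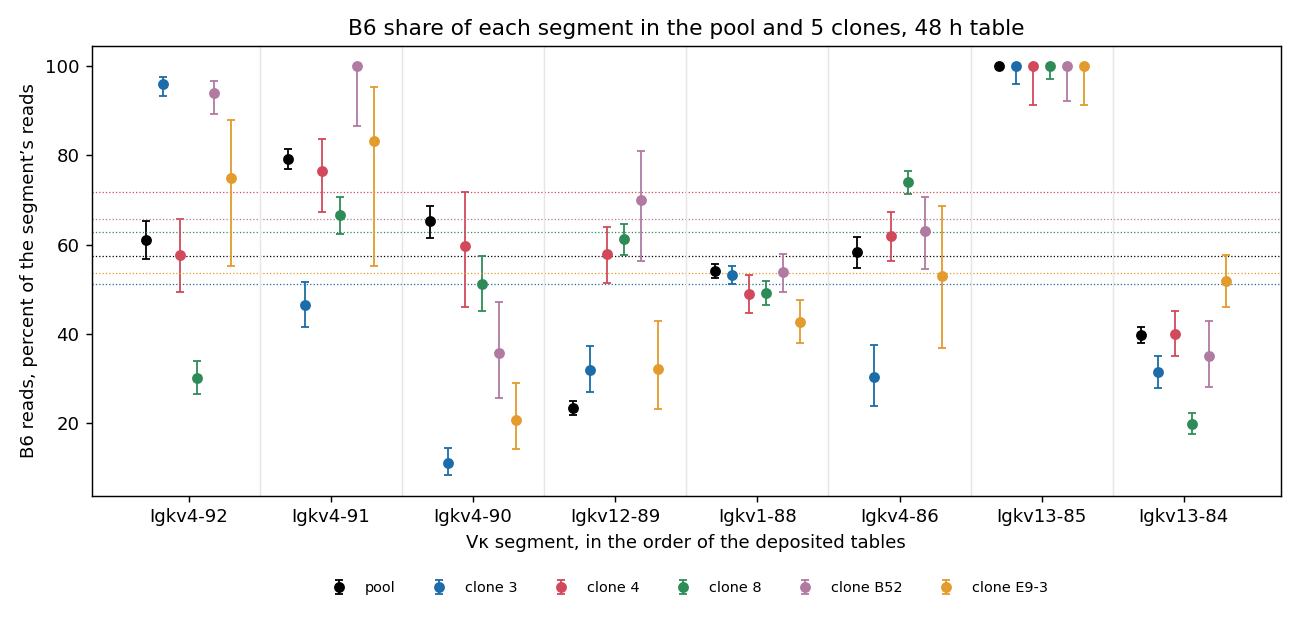
Reads on the B6 allele as a percent of all reads of a segment, in the pool and the 5 clones of the 48 h table, with 95% Wilson intervals; the dotted lines mark the B6 share of each whole library in the same colours. Igkv4-92 ranged from 30.0% to 96.0% over the clones and Igkv1-88 from 42.7% to 53.7%, while Igkv13-85 stood at 100% throughout.

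The calls between clones were spread unevenly over the members. The B6 share of Igkv4-92 was called in 7 of 10 pairs, that of Igkv4-90 and Igkv12-89 in 6 of 10 each, that of Igkv4-91 in 5 of 6, that of Igkv4-86 in 5 of 10 and that of Igkv13-84 in 3 of 10. Igkv1-88 and Igkv13-85 were called in none of 10. Over all segments 29.9% of such tests were called. With the alleles scaled to the same total (all segments 24.4%) the calls numbered 7 for Igkv4-92, 3 each for Igkv4-91, Igkv4-90 and Igkv13-84, 2 each for Igkv12-89 and Igkv4-86, and 1 for Igkv1-88, which left 21 of 76 in place of 32. The 2 calls that remained after division by the excess variance were both of Igkv4-92, for clone 8 against clones 3 and B52.

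Within a library, a segment was called biased to an allele at an adjusted p under 0.05 (exact binomial test) and at least 2 times as many reads on it. In the pool and clone libraries 23 of 47 values of the members were called, against 70.0% of all segments. Of them 14 were biased to B6, against 52%, and 9 to Cast, against 18.0%, and 6 of the 14 were those of Igkv13-85. In the pool 3 of 8 were called (background 66.3%), namely Igkv4-91 and Igkv13-85 to B6 and Igkv12-89 to Cast. Igkv4-92 and Igkv12-89 were each called to both alleles, depending on the library, as was Igkv4-86. In the time course 6 of 12 values were called, all of them to B6, where 82.6% of all segments were called and 65.8% were called to B6.

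Igkv13-85 and Igkv13-84 are near copies that stand 8.87 kb apart in opposite orientations. Their V exons are printed because reads of both have to be told apart at the 9 bases where they differ, shown in capitals. The sequences are those of mm10 on the strand of each segment.
Igkv13-85: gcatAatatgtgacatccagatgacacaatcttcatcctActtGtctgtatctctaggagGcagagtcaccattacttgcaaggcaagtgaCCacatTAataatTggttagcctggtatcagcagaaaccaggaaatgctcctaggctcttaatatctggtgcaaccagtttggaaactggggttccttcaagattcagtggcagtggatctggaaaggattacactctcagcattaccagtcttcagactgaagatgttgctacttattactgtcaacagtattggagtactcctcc
Igkv13-84: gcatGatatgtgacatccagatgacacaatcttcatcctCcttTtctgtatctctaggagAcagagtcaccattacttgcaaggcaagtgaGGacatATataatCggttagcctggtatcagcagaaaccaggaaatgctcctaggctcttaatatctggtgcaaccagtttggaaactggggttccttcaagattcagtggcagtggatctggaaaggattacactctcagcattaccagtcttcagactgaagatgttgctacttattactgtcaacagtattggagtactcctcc

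The exons have 298 bases each and are 97.0% identical, and the last of the 9 differences is at base 105, so that the 193 bases nearest to the joint are the same in both. A read that covers only that part cannot be assigned to one of them from the B6 reference. Reads of the near copies could therefore have been split by the alignment, and the part this has in the missing Cast reads of Igkv13-85 was not tested. Taken as a single unit, their reads were 53.5% on B6 in the pool, 40.0% for clone 3, 45.9% for clone 4, 28.9% for clone 8, 49.7% for clone B52 and 58.0% for clone E9-3. On the B6 allele Igkv13-85 had 0.751 times the reads of Igkv13-84 in the pool, 0.460 times for clone 3, 0.281 times for clone 4, 0.652 times for clone 8, 0.833 times for clone B52 and 0.287 times for clone E9-3. The ratio was thus not constant over the libraries. Of the 85 segments with at least 20 reads in all 6 libraries, 6 (7.06%) had no Cast read in any library, and 2 (2.35%) had no B6 read in the 48 h table, so that Igkv13-85 was not alone in this. The other members are less like any segment of the tables, with a closest relative between 85.1% identical for Igkv4-92 and 91.5% for Igkv4-86.

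**Figure D3:**
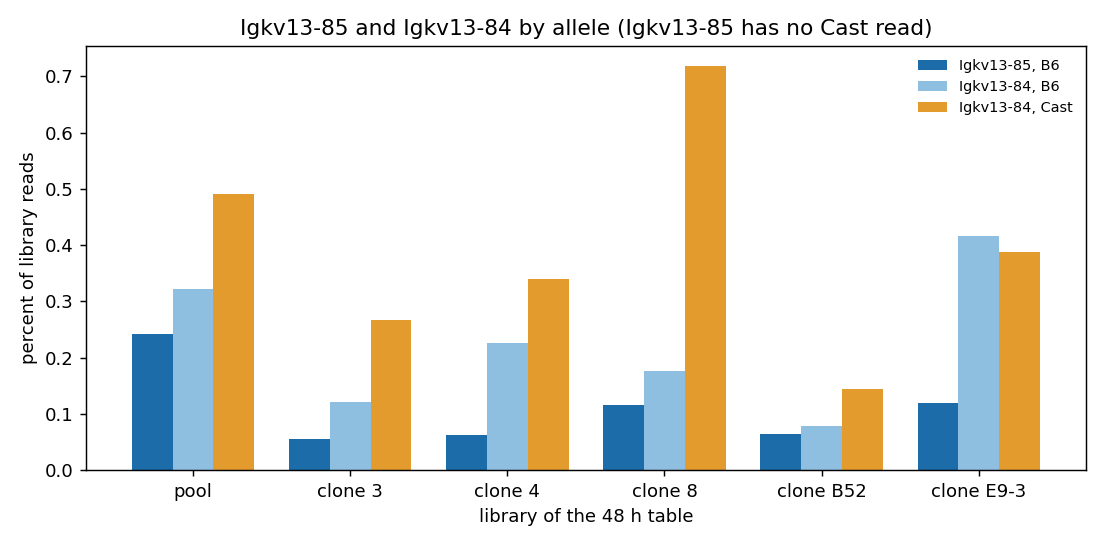
Reads of Igkv13-85 and Igkv13-84 on each allele as a percent of all reads of the library, in the pool and the 5 clones. Igkv13-85 has no bar for Cast because it had no Cast read, and the Cast bar of Igkv13-84 is above its B6 bar in every library but clone E9-3.

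Neighbours were then compared with each other. In the 6 libraries of the 48 h table, the B6 shares of adjacent members with at least 20 reads differed by a median of 23.96 points (40 pairs). The median over all pairs of members, adjacent or not, was 24.95 points (161 pairs), that over all adjacent segments of the table was 22.5 points (500 pairs) and that over all pairs of the table was 30.8 points. Adjacent members were on the same side of 50% in 21 of 40 cases (52.5%), where all adjacent segments of the table were in 63.8% and all pairs in 58.7%. In the log2 percent of library, with 0.01 added, adjacent members differed by a median of 1.39, against 1.32 over all pairs of members and 1.70 over all adjacent segments. The values share libraries and have no test.

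The closest neighbours in B6 share were Igkv1-88 and Igkv4-86, with a median difference of 11.7 points, and the most distant were Igkv13-85 and Igkv13-84, with 62.7 points. Without Igkv13-85 the median was 17.5 points over the adjacent members and 21.5 points over all adjacent segments, so that the members lay below the table and not above it. Single libraries separated neighbours strongly. In clone 3 Igkv4-92 was 96.0% B6, Igkv4-91 46.4% and Igkv4-90 10.9%, although the V exons of Igkv4-92 and Igkv4-91 are 85.1% identical and the segments 12.96 kb apart. In clone B52 Igkv4-91 was 100% and Igkv4-90 35.6%, a difference of 64.4 points. In clone 8 the order was the opposite at the outer end, with Igkv4-92 at 30.0% and Igkv4-91 at 66.6%. The direction of the difference varied between libraries for 4 of the 7 pairs of neighbours. Igkv4-91 was above Igkv4-90 in each of the 6 libraries, with 12 reads of Igkv4-91 in clone E9-3, and Igkv13-85, at 100%, was above both of its neighbours.

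**Figure D4:**
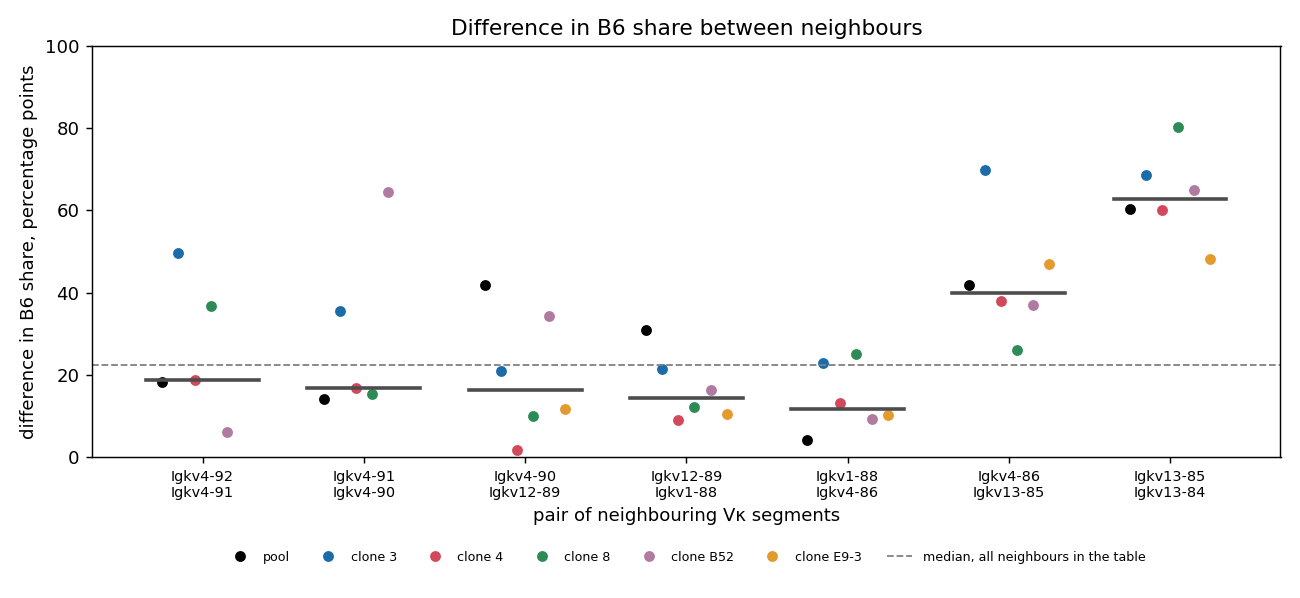
Difference in B6 share, in percentage points, between each pair of neighbouring segments in the pool and the 5 clones (points), for pairs with at least 20 reads each; thick lines are the medians of a pair and the dashed line the median of 22.5 points over all adjacent segments of the table. The pair of Igkv13-85 and Igkv13-84 lies between 48.2 and 80.3 points, and Igkv4-90 and Igkv12-89 lie 1.81 points apart in clone 4 and 42.0 points apart in the pool.

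Igkv4-90 and Igkv4-86, whose signals differ at 1 base of the heptamer, had near levels in the pool, at 0.212% and 0.231%. In clone 8 they were 0.203% and 0.946%, in clone 4 0.0804% and 0.472%, and in clone B52 0.106% and 0.195%. In clones 3 and E9-3 the order was reversed, with 0.233% against 0.102% and 0.327% against 0.0992%. In reads of both alleles Igkv4-86, with the consensus heptamer on B6, was thus the higher one in the pool and 3 of 5 clones and the lower one in the other 2. The signals are those of B6 only. As percent of the B6 allele, Igkv4-90 was the higher one in the pool (0.241% against 0.234%) and in clone E9-3 (0.125% against 0.0978%). On that allele Igkv4-86 was the higher one in clone 3 (0.0601% against 0.0495%) and in clones 4, 8 and B52.

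The time course of clone 4 is shallow, and the 8 segments had 23, 78, 270 and 359 reads at the successive times. They made up 1.32% of the 12 h library, 6.64% of the 24 h library, 3.81% of the 36 h library and 3.28% of the 48 h library. Igkv1-88 contributed most of the members' reads at 24 h. Without it the 24 h value was 2.92%, which was still the highest of the successive times. Without the 3 most abundant segments of each library, which include Igkv1-88 at 24 h, the successive values were 5.01%, 4.77%, 5.01% and 4.07%, with no peak at 24 h. In the same order their summed B6 share was 100%, 78.2%, 70.4% and 64.3%, and that of the whole libraries was 84.2%, 79.5%, 76.2% and 76.7%, so that the members lay above the library at 12 h only.

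Igkv1-88 was read from 12 h on, with 10 B6 reads and no Cast read, 34 B6 and 11 Cast reads at 24 h, 67 and 26 at 36 h, and 96 and 55 at 48 h. It made up 0.576%, 3.83%, 1.31% and 1.38% of the successive libraries, and at 24 h it ranked 3 among the 112 segments. The rise to 24 h was 6.66-fold (adjusted p = 1.72e-09) and the later level 0.342 times that of 24 h (adjusted p = 6.45e-07, both by Fisher's exact test). Without the 3 most abundant segments of each library neither step could be tested, since Igkv1-88 is one of them at 24 h, and its 12 h level became 2.18%. Igkv4-86, the other member with 3 or more reads at 12 h, went from 0.633% to 1.11%, 0.578% and 0.283%, and its step from 36 to 48 h was called (adjusted p = 0.0302, Fisher's exact test). Its 11 reads at 12 h were all on B6, and at 48 h it had 15 B6 and 16 Cast reads.

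The other members reached 3 reads later. Igkv4-92 (7 B6 reads) and Igkv12-89 (9 B6 reads and 1 Cast read) did so at 24 h, and Igkv4-91, Igkv4-90, Igkv13-85 and Igkv13-84 at 36 h. Igkv12-89 went from 0.852% at 24 h to 0.282% at 36 h (adjusted p = 0.0310), and Igkv4-92 from 0.353% at 36 h to 0.155% at 48 h (adjusted p = 0.0494), both by Fisher's exact test. Igkv13-84 went from no read at 24 h to 39 reads, or 0.550%, at 36 h (adjusted p = 0.0232, Fisher's exact test), a call lost without the 3 most abundant segments of each library. In total, 6 of 16 steps of the members were called, against 19.5% of all segments, and after division by the excess variance no step of any segment was called (0 of 174 tests). Divided by 33.9, libraries as shallow as the 1174 reads at 24 h keep too few counts for most steps to be called. That setting therefore cannot tell whether the steps hold. Igkv4-90 stood out among the members by its Cast reads, with 1 B6 and 8 Cast reads at 36 h and 2 and 9 at 48 h, while Igkv13-85 had only B6 reads, 17 and 14. Of the B6 shares compared between 36 and 48 h, 0 of 5 were called (background 0.0%) by Fisher's exact test, with adjusted p from 0.528 to 1.

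**Figure D5:**
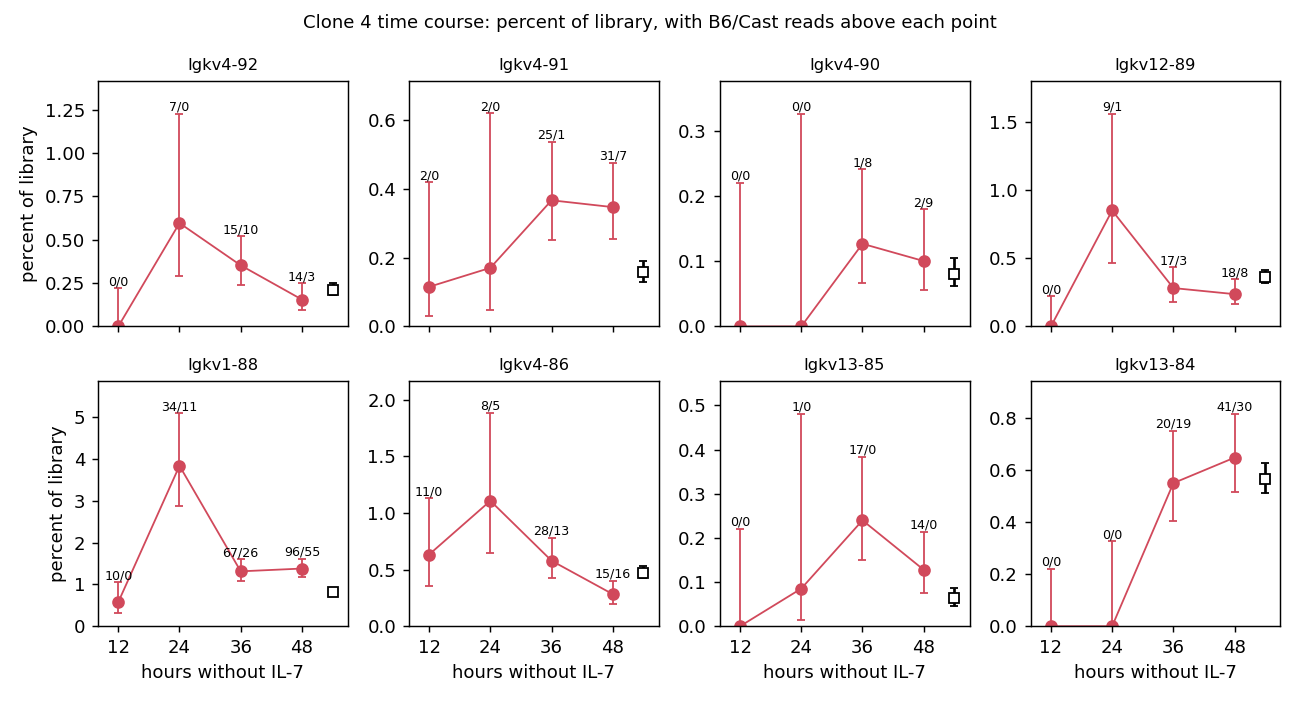
Percent of library of each segment in clone 4 at 12, 24, 36 and 48 h without IL-7 (filled points), with 95% Wilson intervals and the B6/Cast reads above each point; open squares, set to the right of 48 h, are the clone 4 library of the 48 h table. The vertical scales differ between panels, and Igkv1-88 reaches 3.83% at 24 h.

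The libraries of clone 4 at 48 h allow the only check of these levels. For Igkv1-88 they gave 0.820% in the 48 h table and 1.38% in the time course, for Igkv4-91 0.158% and 0.347%, and for Igkv4-86 0.472% and 0.283%. By the rule used for the clones 2 of 8 members were called, against 28% of all segments, namely Igkv4-91 (2.20-fold, adjusted p = 2.22e-04) and Igkv13-85 (2.02-fold, adjusted p = 0.0497, both by Fisher's exact test), the second of which was lost at a minimum of 10 reads. No B6 share was called, with 0 of 5 tested against 13.5%, at a largest difference of 17.9 points, for Igkv13-84. Among the values with too few reads for that test, Igkv4-90 was 59.6% B6 in the 48 h table (31 of 52 reads) and 18.2% in the time course (2 of 11 reads), with intervals of 46.1% to 71.8% and 5.14% to 47.7%.

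Set beside other segments, the 7 members with at least 20 reads in all 6 libraries had a median range of 38.3 points in B6 share over the clones, against 27.5 points for 78 others and 48.6 points for 5 of the 6 flanking segments. Their median B6 share in the pool was 58.2%, against 63.6% for the 78 others. The 19 other Igkv4 segments with such depth had a median of 97.9% in the pool, while the 4 Igkv4 members were between 58.2% and 79.3%. Such shares were not particular to the members, since the 5 nearest of the 19, Igkv4-81 to Igkv4-77, were between 65.5% and 79.7%, and Igkv4-58 and Igkv4-70 were at 55.6% and 37.7%. For 5 other Igkv12 segments the median was 31.3%, beside 23.2% for Igkv12-89, and for 7 other Igkv1 segments it was 75.0%, beside 54.1% for Igkv1-88.

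The segment most like each member was mostly elsewhere in the locus. By the mean absolute difference in B6 share over the 6 libraries it was Igkv10-95 for Igkv4-92 (12.6 points), Igkv4-80 for Igkv4-90 (8.95 points), Igkv2-116 for Igkv12-89 (10.7 points), Igkv9-120 for Igkv1-88 (7.13 points), Igkv8-21 for Igkv4-86 (7.42 points) and Igkv12-46 for Igkv13-84 (10.3 points). Igkv10-95 and Igkv4-80 are themselves among the flanking segments. Igkv13-85 was tied at 0 points with the other 5 segments that had no Cast read, and Igkv4-91 was left out for its 12 reads in clone E9-3. By Pearson's r of the log2 percent over the 6 libraries, the partner was Igkv5-37 for Igkv4-92 (0.891) and for Igkv4-86 (0.906), Igkv14-100 for Igkv12-89 (0.925), Igkv7-33 for Igkv1-88 (0.9001), Igkv15-103 for Igkv13-85 (0.937) and Igkv5-39 for Igkv13-84 (0.979). Only Igkv4-90 had its partner within the stretch, in Igkv1-88 (0.884). These are the highest of 84 coefficients each, over libraries that share depth and scaling, and they describe these 6 libraries.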

How the data were processed

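Both tables hold raw read counts of each Vκ segment on each allele, as deposited by the authors, without normalization. The authors reverse transcribed RNA from Cκ after 2 cycles of poly-A selection, amplified it by ligation-mediated PCR (12 and 7 cycles), and, after trimming, mapped the reads onto a combined genome of both strains (bowtie2) and assigned them to segments with HTSeq-count; program versions are not given in the sources used here, and the 2 read lengths are not assigned to libraries. From the counts, the percent of library, percent of allele and B6 share were computed in Python 3.11.15 (pandas 2.3.3, SciPy 1.17.1, NumPy 2.4.6; figures by matplotlib 3.10.9). Coordinates are those of GENCODE M21 and sequences those of RefSeq's GRCm38, the mm10 assembly, read with pysam 0.24.0 and aligned with Biopython 1.88.

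Percent was tested with Fisher's exact test for segments with at least 20 reads over a pair of libraries, B6 share with at least 20 reads in each, and bias by exact binomial tests, all two-sided with Benjamini-Hochberg adjustment over every segment of the comparison. Calls needed an adjusted p under 0.05 and a 2-fold or 20-point difference. With 1 library per condition no count model was fitted. The scripts were tested on simulated data. All 8 members are named, with the most similar segment of each except Igkv4-91, which was not compared. In B6 share Igkv13-85 was tied with 5 segments. The members and lists were chosen with earlier results of these data known. Other assays of the study were not analysed here.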

Additional observations from a re-analysis of the deposited data

How the results depend on the processing

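Under the read minimums, the scalings and the thresholds tried, the counts of called comparisons of members stayed within 1.5 times the values in the report, except as follows, with the share of all segments' tests called under the same setting in parentheses. With counts divided by the excess variance, the calls against the pool numbered 8 in percent (37.4%) and 3 in B6 share (19.2%), those between clones 9 (26.5%) and 2 (13.99%), those in percent between the libraries of clone 4 0 (3.0%), those between successive times 0 (0.0%), and those of bias 5 to B6 (36.2%) and 3 to Cast (10.8%) in the 48 h table and 0 to B6 in the time course (10.6%). Under this setting segments with few reads, and most values of the time course, can hardly be called. Without a fold minimum, 34 of 40 comparisons with the pool were called in percent (90.9%), 66 of 80 between clones (87.7%) and 4 of 8 between the libraries of clone 4 (65.0%), the last also at a minimum of 1.5-fold (52%). Without a minimum difference, 22 of 39 comparisons with the pool were called in B6 share (63.8%) and 2 of 5 between the libraries of clone 4 (39.2%), the last also at 10 points (35.1%). Scaling the alleles to the same total left 21 calls in B6 share between clones (24.4%), of which 16 were among the 32.

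A minimum of 10 reads gave 1 call in percent between the libraries of clone 4 (26.2%) and 12 of 20 of bias to B6 in the time course (63.6%). A minimum of 50 reads gave 3 of 7 calls between successive times (16.7%), 9 of 41 of bias to B6 in the 48 h table (51.0%) and 1 of 3 in the time course (70.2%). From Cast reads alone 1 of 7 was called in percent between the libraries of clone 4 (36.5%) and 1 of 4 between successive times (15.8%). Against the B6 share of the library, 14 of 47 values were biased to Cast in the 48 h table (24.5%), and 1 of 12 to B6 (42.9%) and 3 to Cast (26.7%) in the time course. With over 80% of reads on an allele required, 9 were biased to B6 (40.7%) and 2 to Cast (11.3%) in the 48 h table and 3 to B6 in the time course (52.2%). The causes of these changes were not tested. The medians between neighbours moved by less than their spread between libraries under each alternative.

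The summed percent of the 8 segments moved beyond its counting interval under most alternatives. Without the 3 most abundant segments it was 4.79 in the pool, 3.30, 3.14, 5.54, 2.74 and 3.79 in clones 3, 4, 8, B52 and E9-3, and 5.01, 4.77, 5.01 and 4.07 at 12, 24, 36 and 48 h, so that the peak at 24 h was gone. Without the most abundant member it was 2.97, 1.41, 1.93, 3.71, 0.943 and 1.72 in the same 6 libraries and 0.695, 2.92, 2.53 and 1.92 at the 4 times, and without Igkv1-88 it was 0.753 at 12 h. As percent of the B6 allele it was 3.65, 2.52, 2.07, 3.88, 1.55 and 2.46 in the 6 libraries and 2.75 at 48 h. As percent of the Cast allele it was 4.82, 2.91, 4.43, 6.34, 1.96 and 3.36 in the 6 libraries, 0 at 12 h, 4.73 at 36 h and 5.02 at 48 h. Clone 8 stayed the highest of the clones and clone B52 the lowest under each of these.

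Scaling the alleles moved 40 B6 shares of single segments beyond their intervals and left 33 within them, and 11 of 48 in the 48 h table changed side of 50%. No paired analysis was possible because each VJ-seq condition has 1 library and the labels give these no shared replicate numbers. Depth limits the time course most, where single segments rest on 0 to 151 reads. In the 48 h table the lowest counts are those of Igkv4-91 in clones E9-3 and B52 (12 and 25 reads), Igkv4-92 and Igkv4-86 in clone E9-3 (24 and 34), Igkv13-85 in clones 4, E9-3 and B52 (41, 41 and 45), Igkv12-89 in clone B52 (50) and Igkv4-90 in clone 4 (52).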
